A study of Mus musculus with 14 samples.

Results

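The transcripts of 10 genes that beta-catenin drives in liver, Glul, Axin2, Lgr5, Nkd1, Sp5, Notum, Rnf43, Znrf3, Tbx3 and Rhbg, were followed library by library in normal liver and spontaneous hepatocellular tumours of mice. The rows of the deposited count table were summed per mouse gene symbol. The genes were chosen by name as established liver targets of the pathway. Earlier results of these data were known at that choice, so the genes are no independent support. They were 10 of 30436 features in the table, and all 10 were among the 12300 features with enough counts to be tested. In 3 tumour samples, labelled Grow 3, Grow 4 and Regress 4, 9 or 10 of the 10 genes stood above every normal liver. Of all tested features 22% to 29.8% did so there. Grow 3 and Grow 4 were the most alike pair within a group, and whether they share a tumour is not given. Glutamine synthetase (Glul) reached up to 27.0 times the normal mean. In the remaining 7 tumours none of the 10 did, against 22.8% to 27.8% of features. Below every normal liver stood 3 to 9 of the 10, against 19.5% to 32.4% of features. The 3 in Grow 2 and in Regress 1 were close to that share.

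All 14 samples were liver or liver tumour of male C3HeB/FeJ mice, an inbred strain prone to liver tumours with age, given as 18 months old. Tumours were looked for at 10 months, and injections into the peritoneum followed in 6 cycles of 28 days, on 5 days of each. The 4 normal livers (Normal 1 to 4) had phosphate citrate buffer. The 6 tumours marked Grow had DMSO, a solvent (Grow 1 and 5), SAHA with TMZ at 85 and 22 mg/kg (Grow 2, 3 and 4) or SAHA alone at 100 mg/kg (Grow 6). The 4 tumours marked Regress had TMZ at 31 mg/kg (Regress 1 and 3), buffer (Regress 2) or DMSO (Regress 4). SAHA (suberoylanilide hydroxamic acid) inhibits histone deacetylases, and TMZ (temozolomide) alkylates DNA. The labels do not say how growth or regression was scored, nor whether samples came from separate mice, so p-values measure only the spread between these samples.

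Libraries held 4707063 (Regress 3) to 13394301 (Grow 1) estimated counts. Levels are given as CPM (counts per 1000000 counts) after scaling by edgeR's trimmed mean of M values (TMM). Grow 3 and Grow 4 resembled each other more than any other pair of libraries of 1 group: the SD of the log2 ratio between them was 0.44 over 12176 features, against 0.67 to 1.74 in the other 26 pairs. Over all features their counts differed by more than counting noise (chi-square per degree of freedom 19.3), while the median chi-square per feature was 0.874, against 2.11 to 27.9 in the other pairs. The labels do not say whether they share a mouse or tumour. They were kept as 2 samples, and the fitted values of the 10 genes are also summarised without them. The labels give Normal 4 and Regress 2 an identical code. All 10 hepatocyte markers, among them Alb, had counts in every library, with summed levels of 84816 to 118223 CPM in normal liver, 56379 and 56264 in Grow 3 and Grow 4, and 97870 to 314140 in the other tumours. Markers of stellate cells and matrix summed to 987 CPM in Regress 4 and to 67.0 to 347 in the other 13 libraries. Col1a1, a chain of type I collagen, was at 186 CPM in Regress 4. The 9 proliferation genes summed to 2.18 to 3.69 CPM in normal liver, 3.95 in Regress 2, 9.26 in Regress 1 and 33.3 to 67.4 in the other 8 tumours. The part of cell content in the levels below was not tested, and fewer cells of a type cannot be told apart from less RNA per cell in bulk tissue.

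In the absence of a Wnt signal beta-catenin is bound by a complex of Apc, Axin1 and Gsk3b and degraded. When Wnt ligands engage Frizzled and Lrp receptors the complex is held back, and beta-catenin enters the nucleus and acts with TCF/LEF factors on target genes. Many of those targets are brakes on the pathway itself. In liver the signal comes from cells around the central vein, and hepatocytes there express Glul and detoxifying enzymes, while hepatocytes near the portal vein express urea cycle genes. Activating mutations of beta-catenin are known from liver tumours of mouse and human, and Glul is a common marker of them. The genotype of Ctnnb1 in these tumours is not given in the sources used here.

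Promoter windows from RefSeq (GRCm38.p6), from 250 bases before to 50 bases after a start site, were found for 5 of the 10 genes: Glul, Axin2, Sp5, Nkd1 and Rnf43. They were searched on both strands for 4 words of the TCF/LEF site, none of which overlaps itself or contains another. The words searched were CTTTGAA and the variant CTTTGAT, then also the variant CTTTGTA and finally the variant CTTTGTT. Of the 5 genes only Sp5 had a match in its window. It held 2: CTTTGTT on the other strand at position -222 and CTTTGAT as printed at position -104, counted from the start site. Of 32851 mouse windows of the same length, 16.9% held at least 1 of the words and 1.94% held 2 or more. The absence of a match says only that these letters are not in the window. The windows of Sp5, with its matches in capitals, of Glul, which had the widest range of levels, and of Axin2, a general target of the pathway in many tissues, are shown for comparison. Sp5 lies at chr2:70474673-70474972, Glul at chr1:153899679-153899978 and Axin2 at chr11:108920099-108920398, all on the plus strand.
Sp5: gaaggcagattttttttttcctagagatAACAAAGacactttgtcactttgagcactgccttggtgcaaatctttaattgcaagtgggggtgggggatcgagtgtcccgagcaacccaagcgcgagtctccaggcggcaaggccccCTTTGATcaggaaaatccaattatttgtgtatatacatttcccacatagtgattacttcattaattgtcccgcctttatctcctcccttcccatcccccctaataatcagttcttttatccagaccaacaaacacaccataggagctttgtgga
Glul: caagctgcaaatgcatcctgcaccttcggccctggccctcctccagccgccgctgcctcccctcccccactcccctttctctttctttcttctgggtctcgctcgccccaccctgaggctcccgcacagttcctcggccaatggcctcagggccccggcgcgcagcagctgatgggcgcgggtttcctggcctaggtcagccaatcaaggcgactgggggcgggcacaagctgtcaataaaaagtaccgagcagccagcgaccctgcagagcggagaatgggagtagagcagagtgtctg
Axin2: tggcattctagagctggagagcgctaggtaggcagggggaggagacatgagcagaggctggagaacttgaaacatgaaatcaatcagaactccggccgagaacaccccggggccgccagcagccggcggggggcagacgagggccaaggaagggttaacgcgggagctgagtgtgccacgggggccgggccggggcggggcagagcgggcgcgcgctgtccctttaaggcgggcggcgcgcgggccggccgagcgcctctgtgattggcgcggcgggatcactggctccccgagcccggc

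Compared per kilobase of transcript, the mean level in the 4 normal livers was highest for Glul at 132 CPM per kb. Notum followed at 7.12, Rnf43 at 3.81, Rhbg at 2.77 and Tbx3 at 2.22. Nkd1 and Znrf3 stood at 1.28 each, Axin2 at 0.954, Lgr5 at 0.501 and Sp5 at 0.362. In Grow 3 the order changed, with Glul at 3568 CPM per kb, Rhbg at 159, Notum at 35.3 and Nkd1 at 33.7, and with Lgr5 lowest at 3.24. The values of the 4 normal livers overlapped between each pair of neighbours in this order from Notum to Sp5, and Glul stood apart from all.

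**Figure D1:**
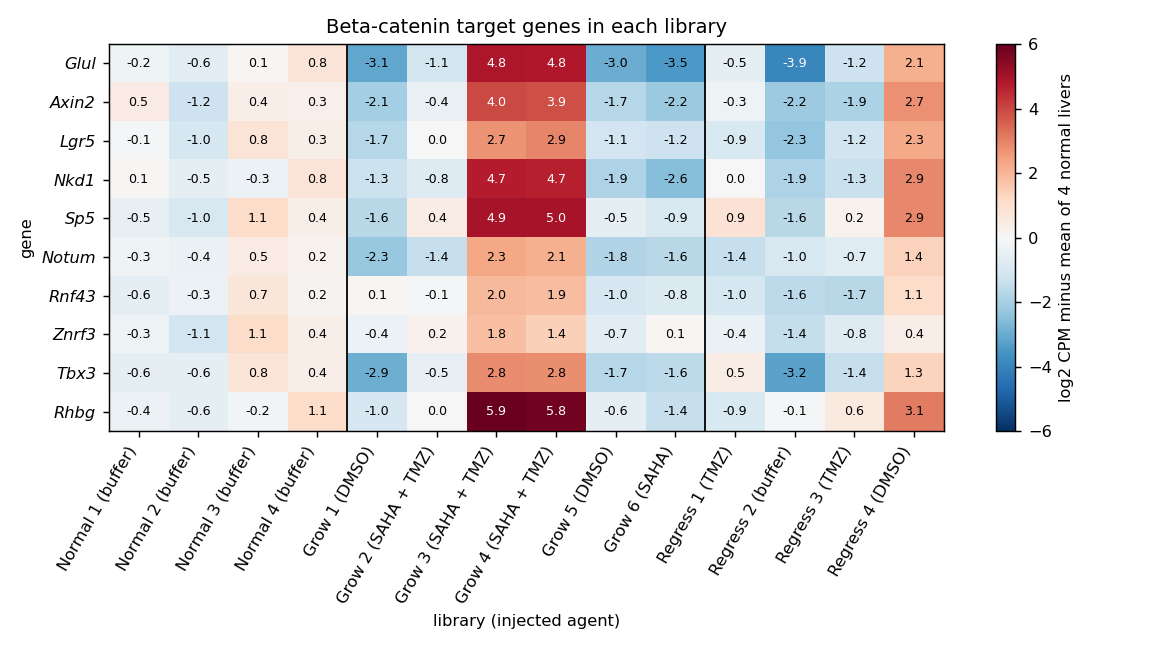
Log2 CPM (prior count 2) of each of the 10 target genes (rows) in each of the 14 libraries (columns, with the injected agent), as the difference from the mean of the 4 normal livers. Colours run from blue (lower) to red (higher) and lines part the Normal, Grow and Regress libraries. Grow 3, Grow 4 and Regress 4 are above 0 in every row, in Grow 3 and Grow 4 most in the rows of Glul, Nkd1, Sp5 and Rhbg, while Grow 1, Grow 5, Grow 6 and Regress 2 are mostly blue.

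Glul had the widest range of levels among the 10 genes, 8.76 log2 units from the lowest to the highest library, followed by Rhbg (7.30) and Nkd1 (7.29). Glul encodes glutamine synthetase, which joins ammonia to glutamate in the last hepatocytes before the central vein. It was at 292, 225, 375 and 583 CPM in Normal 1 to 4. In Grow 1 to 6 it was at 39.6, 159, 9962, 9771, 43.7 and 31.4 CPM, and in Regress 1 to 4 at 238, 22.7, 147 and 1519 CPM. Grow 3, Grow 4 and Regress 4 were above all normal livers, Regress 1 was within their range and the other 6 tumours were below it. The lowest, Regress 2, had 0.0617 times the normal mean, so the tumours spanned both sides of normal liver.

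Rhbg, an ammonium transporter of the cell surface found beside Glul in pericentral hepatocytes, was at 3.69, 3.15, 4.18 and 10.5 CPM in Normal 1 to 4. It reached 307 and 279 CPM in Grow 3 and Grow 4, which were 57.2 and 51.9 times the normal mean, and 43.6 CPM in Regress 4. Those were the largest multiples of the normal mean among the 10 genes in the 2 Grow tumours. The other 4 Grow tumours lay between 1.66 and 4.80 CPM, and Regress 1 to 3 were at 2.36, 4.35 and 7.21 CPM. Grow 2, Regress 2 and Regress 3 were thus inside the range of normal liver, unlike for Glul, where Grow 2 and Regress 2 and 3 were below it.

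Tbx3, a T-box repressor of transcription, was at 6.32, 6.48, 16.9 and 12.9 CPM in the normal livers. It was at 70.8 and 68.4 CPM in Grow 3 and Grow 4 and at 25.1 in Regress 4. The other Grow tumours lay between 1.03 and 6.81 CPM, and Regress 1, 2 and 3 were at 13.6, 0.791 and 3.61 CPM. The symbol has 2 RefSeq rows, and in several libraries the estimate put all counts on 1 of them, so only their sum is used here.

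Axin2 and Nkd1 are both brakes inside the cell. Axin2, a scaffold of the complex that degrades beta-catenin, was at 5.27, 1.40, 4.93 and 4.66 CPM in Normal 1 to 4. Levels in Grow 3 and Grow 4 were 61.4 and 57.1 CPM, and Regress 4 had 26.1. The other 4 Grow tumours had 0.553 to 2.63 CPM and Regress 1 to 3 had 2.96, 0.593 and 0.773. No tumour outside those 3 libraries passed the normal range, and 5 lay under its lowest value.

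Nkd1, which binds Dishevelled and dampens the signal, was at 3.86, 2.45, 2.84 and 6.40 CPM in the normal livers. Grow 3 and Grow 4 were at 102 and 99.5 CPM, or 26.3 and 25.6 times the normal mean, and Regress 4 was at 28.8 CPM. The other Grow tumours had 0.369 to 2.01 CPM, all below normal liver. Regress 1 at 3.74 CPM was within the normal range, and Regress 2 and 3, at 0.791 and 1.29 CPM, were below it.

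Of the brakes at or outside the cell surface, Notum, Rnf43 and Znrf3, the ranges were narrower. Notum, a secreted enzyme that strips the lipid from Wnt ligands, was at 11.4, 10.3, 19.6 and 16 CPM in the normal livers. It was at 71.1 and 62.1 CPM in Grow 3 and Grow 4 and at 36.7 in Regress 4. All 7 other tumours, between 2.64 CPM (Grow 1) and 8.24 CPM (Regress 3), were below the lowest normal liver.

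Rnf43, a ubiquitin ligase that removes Frizzled receptors from the surface, was at 10.4, 12.1, 26.0 and 17.2 CPM in the normal livers. Grow 3 and Grow 4 were at 60.3 and 56.4 CPM and Regress 4 at 33.7. Grow 1 and Grow 2, at 16.6 and 14.7 CPM, were within the normal range. Grow 5 and 6 (7.54 and 8.67 CPM) and Regress 1 to 3 (7.29, 4.94 and 4.64 CPM) were below it.

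Znrf3, the partner of Rnf43 with the same task, was at 5.44, 2.98, 15.1 and 8.87 CPM in Normal 1 to 4. It was at 24.9 and 18.7 CPM in Grow 3 and Grow 4, 3.07 and 2.32 times the normal mean. Regress 4, at 9.31 CPM, was inside the normal range, and only Regress 2, at 2.37 CPM, was below it. Znrf3 was the only one of the 10 genes for which a normal liver, Normal 3, ranked among the 3 highest libraries.

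The receptor Lgr5, which binds R-spondins and marks stem cells of the gut and pericentral hepatocytes, was at 1.93, 0.876, 3.88 and 2.76 CPM in the normal livers. Grow 4 held 17.7 CPM, Grow 3 held 15.3 and Regress 4 held 11.3. The other Grow tumours had 0.440 to 2.17 CPM and Regress 1 to 3 had 0.985, 0.198 and 0.773. Between the 3 highest libraries Lgr5 differed least of the 10 genes, with Grow 3 at 1.35 times Regress 4.

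Sp5, a zinc finger factor of transcription induced by Wnt signals and one that represses other targets, had the lowest normal level. It was at 0.351, 0.175, 1.64 and 0.873 CPM in Normal 1 to 4, and no counts were seen in Grow 1 and Regress 2, where a count of 0 allows up to 0.224 and 0.492 CPM of the unscaled library total. In Grow 3 and Grow 4 it was at 27.6 and 27.8 CPM, and in Regress 4 at 6.35. The other 7 tumours were at or under 1.38 CPM (Regress 1), inside or below the normal range. Sp5 passed the filter on low counts only through the tumours in which it is high: without Grow 3 and Grow 4 it was not tested. Its p-values in the comparisons below rest on that selection and are no support.

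Read by library, all 10 genes in Grow 3 and all 10 in Grow 4 were above the highest normal liver, where 22.0% and 22.3% of all tested features were. In Regress 4 this held for 9 of 10, Znrf3 being the exception, against 29.8% of features. No member was below the lowest normal liver in Grow 3 (21.6% of features), Grow 4 (21.8%) or Regress 4 (27.4%). None of the 10 was above normal liver in the other 7 tumours, in which 22.8% (Grow 6), 23.8% (Grow 5), 24.5% (Grow 1), 25.4% (Grow 2), 26.6% (Regress 1), 27.6% (Regress 3) and 27.8% (Regress 2) of features were. Below the lowest normal liver were 8 of the 10 genes in Grow 1, Grow 5 and Grow 6 (22.0%, 19.5% and 19.9% of features), 9 in Regress 2 (30.7%) and 7 in Regress 3 (32.4%). In Grow 2 and Regress 1 it was 3 of 10, against 24.6% and 28.7% of features, close to the share of all features. The 3 high libraries also differed in extent: Grow 3 exceeded Regress 4 by 7.05 times for Rhbg, 6.56 for Glul, 4.35 for Sp5 and 3.56 for Nkd1, but by 1.94 for Notum and 1.79 for Rnf43.

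The treatments did not divide the tumours in the same way. Of the 3 tumours given SAHA with TMZ, Grow 3 and Grow 4 were above normal liver in all 10 genes and Grow 2 in none. The remaining high tumour, Regress 4, had DMSO, as did Grow 1 and Grow 5, which were among the lowest. Grow and Regress tumours each included high and low libraries: Glul spanned 31.4 to 9962 CPM within Grow and 22.7 to 1519 CPM within Regress, against 225 to 583 CPM among normal livers.

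In Grow against Normal the fitted log2 fold changes (edgeR's quasi-likelihood test, all 14 samples in 1 fit) were positive for all 10 genes, with a median of 1.85, against -0.00 over all features. They were largest for Rhbg (4.2 ± 1.64 SE, adjusted p = 0.194), Sp5 (3.58 ± 1.65, 0.293), Glul (3.18 ± 1.72, 0.394) and Nkd1 (3.14 ± 1.56, 0.336). Those for Znrf3 (0.49 ± 0.57), Rnf43 (0.74 ± 0.70) and Notum (0.79 ± 0.94) were within about 1 SE of 0. None of the 10 was called at an adjusted p under 0.05, where 1.76% of the 12300 features were (217). At an unadjusted p under 0.05 there were 2 genes, Rhbg and Sp5, close to the 16.6% of all features. DESeq2 called 1 (Rhbg, 4.21, adjusted p = 0.0269), beside 1014 of the 12300 features. Limma-voom called none of the 10 and 90 features. Sp5 was tested only through the tumours in which it is high, so its p-value is no support. Without Grow 3 and Grow 4, 9 genes were tested, all 9 had negative values from -2.41 (Glul) to -0.35 (Znrf3), and none was called. In Grow the SD exceeded the mean for 8 of the 10 genes. Glul was at 369 ± 156 CPM (SD, n = 4) in Normal and 3335 ± 5060 CPM (SD, n = 6) in Grow, while Rnf43 (27.4 ± 24.3) and Znrf3 (11.4 ± 8.38) in Grow had SDs below the mean.

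In Regress against Normal the median of the 10 log2 fold changes was 0.46, against 0.03 over all features. They ran from -0.63 ± 0.63 SE (Znrf3) to 1.5 ± 1.71 (Sp5), with Glul at 0.39 ± 1.65 and Rhbg at 1.43 ± 1.55. The edgeR test called none of the 10, and 0.0244% of features (3). None had an unadjusted p under 0.05, against 16.2% of features. DESeq2 and limma-voom called none of the 10, and 712 and 0 features. Without Regress 4 all 10 values were negative, from -1.85 (Lgr5) to -0.12 (Sp5), again with none called. Without Grow 3 and Grow 4 the median of the 9 tested was 0.40, with 7 positive and none called. All tumours against Normal gave a median of 1.29, against 0.01 over all features, with 9 of 10 positive, none called, and 2.32% of features called (285). None of the 10 had an unadjusted p under 0.05 there, against 18% of features. DESeq2 and limma-voom called none of the 10 there, and 1055 and 127 features. Without Grow 3 and Grow 4 that median was -0.41 and only Sp5 of the 10 was not tested. These comparisons share the 4 normal livers and are not independent of each other.

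In Regress against Grow all 10 log2 fold changes were negative, from -2.79 ± 1.69 SE (Glul) to -0.79 ± 0.94 (Notum), with a median of -1.31 against -0.01 over all features. None was called by edgeR, DESeq2 or limma-voom, which called 0, 31 and 0 of all features. None had an unadjusted p under 0.05, against 10% of features. All 10 stayed negative whichever 1 library was left out. With Grow 3 and Grow 4 left out together, 8 of the 9 genes tested were positive, up to 2.93 for Nkd1, and 5 had an unadjusted p under 0.05. Without Regress 4 the values fell to a median of -3.46, with Glul at -4.62, and 7 had an unadjusted p under 0.05. In neither case was a gene of the 10 called (lowest adjusted p by edgeR 0.316 and 0.0567), although without Regress 4 the test called 1249 features. The share of all features at an unadjusted p under 0.05 was not worked out for these fits, so the counts of 5 and 7 cannot be weighed.

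**Figure D2:**
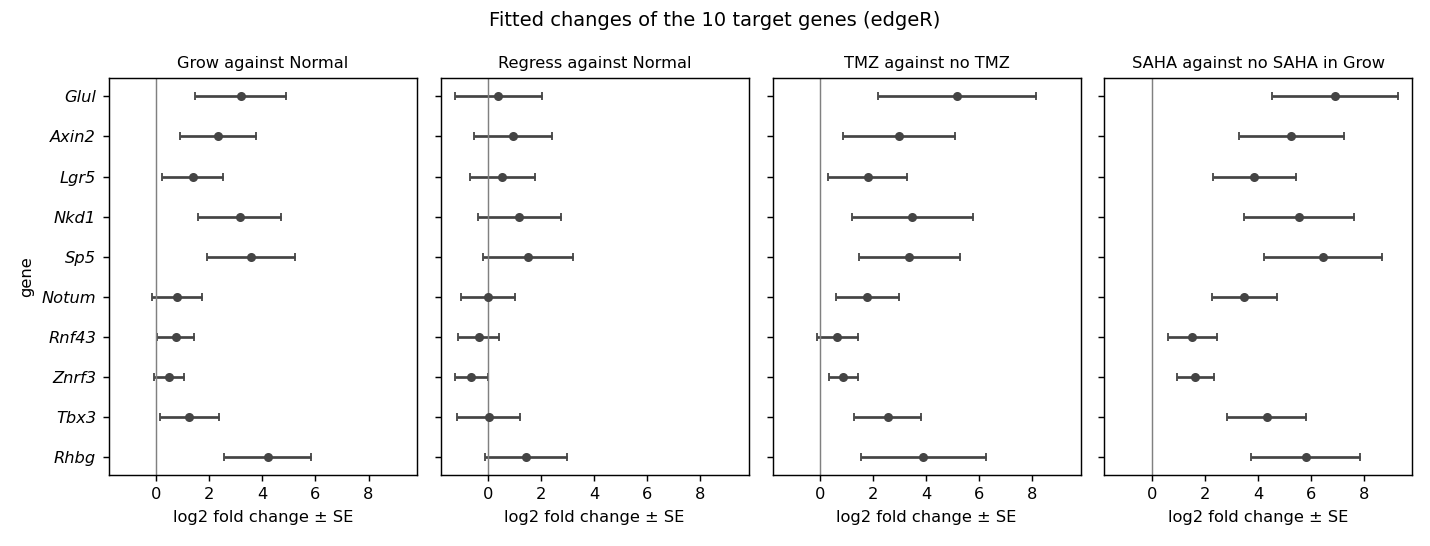
Fitted log2 fold change (points) and SE (bars) of the 10 target genes in 4 comparisons, from edgeR's fit. The points of Grow against Normal and of both drug comparisons lie to the right of 0 for all 10 genes with wide bars, and those of Regress against Normal lie on both sides of 0; none of these changes was called.

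TMZ was compared as a term beside the group, with 5 tumours given it (Grow 2, 3 and 4 at 22 mg/kg beside SAHA, Regress 1 and 3 at 31 mg/kg alone) and 5 without it. All 10 genes had positive log2 fold changes, with a median of 2.77 against -0.03 over all features. They ran from 0.66 ± 0.79 SE (Rnf43) to 5.15 ± 2.98 (Glul). None was called by edgeR, which called 0% of features, or by limma-voom, which called 2 features. None had an unadjusted p under 0.05, against 13.9% of features. DESeq2 gave an adjusted p for 8 of the 10, without Glul and Nkd1. It called Rhbg (4.14, adjusted p = 0.0327), beside 464 of all 12300 features. Without Grow 3 and Grow 4 the median of the 9 tested was -0.63 and 3 were positive. Without Regress 4 the median was 4.43 and all 10 had an unadjusted p under 0.05, with none called (lowest adjusted p by edgeR 0.0632). The 10 include Sp5, which was tested only through the tumours in which it is high. The share of all features at that level was not worked out for this fit, so the count cannot be weighed. Glul at 31 mg/kg was at 238 and 147 CPM, within and below the normal range.

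SAHA was compared within the Grow tumours, 4 with it (Grow 2, 3, 4 and 6) and 2 with DMSO (Grow 1 and 5). The log2 fold changes were the largest of any comparison, with a median of 4.80 against 0.01 over all features, and with Glul at 6.90 ± 2.39 SE and Sp5 at 6.44 ± 2.22. At an unadjusted p under 0.05 there were 9 of the 10, against 2.64% of features, yet each adjusted p from edgeR was 1 and 0% of features were called. DESeq2 called 6, Glul, Rhbg, Nkd1, Tbx3, Axin2 and Sp5, with adjusted p from 0.0088 to 0.0496. Of all 12300 features it called 52, and limma-voom called none of the 10 and 0 features. The 9 and the 6 both include Sp5, which was tested only through the tumours in which it is high. The 4 SAHA tumours did not move as 1 group: Glul was at 9962 and 9771 CPM in Grow 3 and 4 and at 159 and 31.4 CPM in Grow 2 and 6, beside 39.6 and 43.7 CPM with DMSO. Without Grow 3 and Grow 4 the median of the 9 tested was 0.69, and none had an unadjusted p under 0.05. SAHA and TMZ were given together in 3 of the 4 tumours and cannot be told apart there.

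Of the pathway's own parts none passed the test by edgeR. Of all features it called 2.32% in all tumours against Normal, 1.76% in Grow against Normal and 0.0244% in Regress against Normal. In the other comparisons it called 0%. The absence of calls among these genes is thus close to the share of all features. None of the 6 tested genes of the 25 Wnt and R-spondin ligands and their secretion was called in any comparison, nor any of the 12 tested receptors, 17 genes of beta-catenin turnover, 15 nuclear partners or 3 tested secreted and cytoplasmic inhibitors. Their median log2 fold changes in Grow against Normal were -0.84, 0.18, 0.20, -0.10 and -0.15. Ctnnb1, which encodes beta-catenin, was at 131 to 208 CPM in normal liver and at 181 and 184 CPM in Grow 3 and 4, inside that range. It was at 250 to 342 CPM in the other 4 Grow tumours and at 378 in Regress 4, where the messages of Lrp5 (130 CPM, against 23.8 to 59.0 in normal liver) also stood high. Across Grow against Normal Ctnnb1 gave 0.61 ± 0.34 SE (adjusted p = 0.409 by edgeR). Apc (0.04 ± 0.38), Axin1 (0.05 ± 0.19), Gsk3b (0.14 ± 0.40) and Tcf7l2 (-0.24 ± 0.39) lay within 1 SE of 0, and Lgr4, the sister receptor of Lgr5, gave -0.62 ± 0.25 (adjusted p = 0.205).

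The leading ligand-side genes by level were Wls, the carrier of Wnt ligands, at 0.31 ± 0.39 SE in that comparison, and Wnt5b at -1.80 ± 0.60 (adjusted p = 0.124 by edgeR). Hnf4a (-0.16 ± 0.30) and Tle1 (0.11 ± 0.23) among the nuclear partners, Dvl1 (-0.36 ± 0.26) in the cytoplasm, and Lrp5 (1.15 ± 0.48, adjusted p = 0.235), Tnfrsf19 (0.72 ± 0.76) and Kremen1 (-0.15 ± 0.32) were not called either. Rspo3, the R-spondin of central vein cells, was at 3.14 to 4.91 CPM in normal liver and at 0.757, 1.30 and 2.40 CPM in Grow 3, Grow 4 and Regress 4. It was chosen for mention after its values were seen. It was below normal liver in each of the 3 tumours with high target genes, and also in 5 of the other 7, with Regress 1 (8.08 CPM) above and Regress 3 (3.35 CPM) within.

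Of the 10 tested targets known from other tissues, edgeR called 2 higher in Grow against Normal and none lower, against 1.76% of all features. Ccnd1, cyclin D1 of the G1 phase, was at 3.33 to 5.53 CPM in normal liver, 33.5 to 52.4 in Grow and 11.4 to 50.4 in Regress, with no overlap (3.19 ± 0.39 SE, adjusted p = 0.00508 by edgeR in Grow, and 2.85 ± 0.40, 0.0388 in Regress). In Grow 3 and 4 it was at 37.9 and 33.5 CPM, a little under the other Grow tumours (38.5 to 52.4 CPM), so its order across libraries was not that of the 10 target genes. Jun, an AP-1 factor, rose in Grow (1.89 ± 0.41, adjusted p = 0.0384). That call was lost without any 1 of the normal livers (adjusted p = 0.0754 to 0.130) and without Grow 1, 3, 4, 5 or 6 (0.0509 to 0.0797), and also with limma-voom (0.0516), with Grow 3 and Grow 4 summed (0.0559) and with Normal 4 and Regress 2 left out (0.112). The call of Ccnd1 in Grow held without any single library. Without Grow 3 and Grow 4 together edgeR still called Ccnd1 (adjusted p = 0.0107) and Jun (0.0424) in Grow and Ccnd1 in Regress (0.0443). The call of Ccnd1 in Regress was lost without any 1 normal liver (0.0884 to 0.197), without Grow 2, 3, 4 or 5 (0.0585 to 0.0756) and without Regress 2 or 3 (0.0847 and 0.0643). It was also lost with limma-voom (0.108), with only the groups compared in the fit (0.175), with Grow 3 and Grow 4 summed (0.0615) and with Normal 4 and Regress 2 left out (0.199). Lef1 had no counts in any normal liver and was at 2.52, 2.48 and 1.13 CPM in Grow 3, Grow 4 and Regress 4, with at most 0.0733 CPM in any other tumour. Myc was highest in Grow 2, at 16.9 CPM, where the target genes were not raised.

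Several further genes of these lists, picked out here after their values were seen, were highest in the same 3 tumours, Wif1 in Regress 4 by a small margin. Wif1, a secreted Wnt inhibitor, was at 34.6 and 34.2 CPM in Grow 3 and Grow 4, 1.27 in Regress 4 and at most 0.527 in the other 11 libraries. Apcdd1, a membrane inhibitor of Wnt signals, was at 10.7, 9.67 and 4.51 CPM in the 3 tumours and at most 0.515 elsewhere. Tcf7, a TCF factor, was at 14.9, 15.3 and 11 CPM, against 0.876 to 4.40 elsewhere. Tnfrsf19 was at 41.4, 42.3 and 30.9 CPM, against 3.66 to 13.4 elsewhere. Ccn4, a secreted matrix-associated factor, was at 7.20, 6.84 and 7.48 CPM, against 0 to 1.39 elsewhere.

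Zonation genes set Regress 4 apart from Grow 3 and Grow 4. Of the 16 tested pericentral genes, 12 were above normal liver and 1 below in both Grow 3 and Grow 4, whereas 4 were above and 9 below in Regress 4. In the other 7 tumours 1 was above and 6 to 14 were below. Over all features, 22% in Grow 3, 22.3% in Grow 4 and 29.8% in Regress 4 were above normal liver, and 19.5% to 32.4% were below it in the 10 tumours. Oat, ornithine aminotransferase of pericentral cells, was at 175 to 416 CPM in normal liver, 2424 and 2446 in Grow 3 and 4, and 52.5 in Regress 4. Slc1a2, a glutamate transporter, was at 11.4 to 55.7 CPM in normal liver, 365 and 361 in Grow 3 and 4, and 30.5 in Regress 4. Cyp2e1, an ethanol-oxidising P450, was at 2857 to 8397 CPM in normal liver, 8912 and 9137 in Grow 3 and 4, 1354 in Regress 4 and down to 41.8 in Grow 1. Cyp1a2 (231 to 759 CPM in normal liver) was at 886, 870 and 227 CPM in the same tumours, and Rgn (986 to 1120 CPM) at 2800, 2906 and 278 CPM. None of the 16 was called in any comparison by edgeR, which called at most 2.32% of all features in a comparison. For TMZ the nearest was Cyp27a1 (2.07 ± 0.39 SE, adjusted p = 0.0668 by edgeR), named here after its values were seen. Oat gave 5.40 ± 1.15 SE (adjusted p = 0.0800), and its levels in the TMZ tumours other than Grow 3 and 4 were 84.5 to 209 CPM.

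Periportal genes were low in the tumours with the highest target genes. Of 18 tested, 14 in Grow 3, 15 in Grow 4 and 15 in Regress 4 were below normal liver, against 6 to 11 in the other tumours. Over all features 21.6%, 21.8% and 27.4% were below in those 3 tumours, and 19.5% to 32.4% in the others, so the lowest of the counts in the other tumours is near that share. Gls2, glutaminase, was at 202 to 361 CPM in normal liver, 10.5 and 10.4 in Grow 3 and 4, 113 in Regress 4 and 174 to 353 in the other tumours. Cps1, which brings ammonia into the urea cycle, was at 1518 to 3937 CPM in normal liver, 55.8 and 50.3 in Grow 3 and 4, and 658 in Regress 4. Asl, argininosuccinate lyase, fell in Grow against Normal (-1.83 ± 0.30 SE, adjusted p = 0.0178 by edgeR), from 313 to 470 CPM in normal liver to 76.3 to 136 CPM in all 6 Grow tumours, and this call was lost without Normal 1 (0.0748), without Normal 4 (0.0690) or without Normal 4 and Regress 2 together (0.0666). Cdh1, E-cadherin, was at 0.701 to 6.13 CPM in normal liver, 4.17 and 4.83 in Grow 3 and 4, 251 in Regress 4 and 144 to 254 in the other Grow tumours. Aldh1b1, a mitochondrial aldehyde dehydrogenase, was at 37.1 to 51.2 CPM in normal liver, 4.54 and 3.77 in Grow 3 and 4, 123 in Regress 4 and 197 to 314 in the other Grow tumours. Gls2, Cps1, Cdh1 and Aldh1b1 were chosen after their values were seen.

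**Figure D3:**
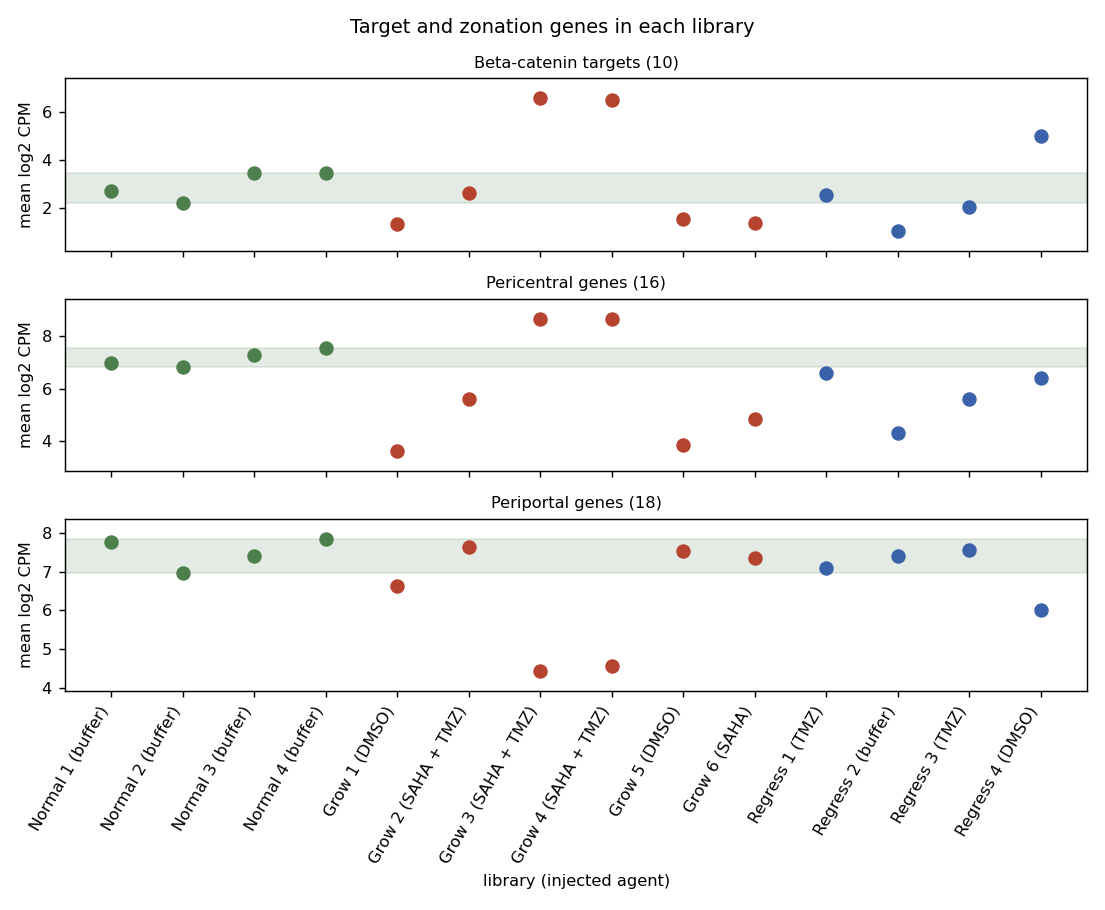
Mean log2 CPM (prior count 2) over the 10 target genes, the 16 tested pericentral genes and the 18 tested periportal genes in each library; green points are normal livers, red Grow and blue Regress, and the green band is the range of the 4 normal livers. Grow 3 and Grow 4 lie above the band for targets and pericentral genes and below it for periportal genes, while Regress 4 lies above it for targets and below it for both zonation lists.

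**Figure D4:**
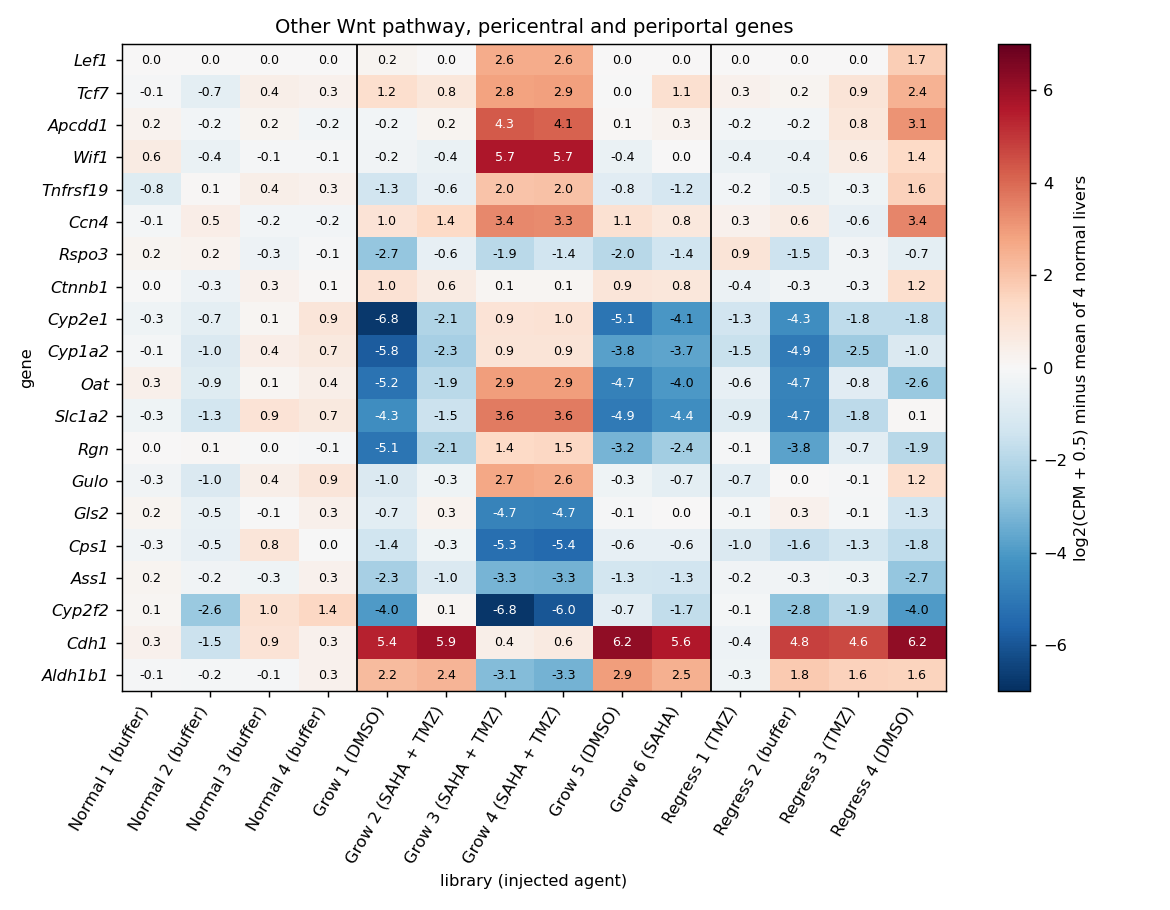
Log2 of CPM + 0.5 of 20 other genes of the pathway and of the liver zones (rows) in the 14 libraries (columns), as the difference from the mean of the normal livers, with blue for lower and red for higher. From Lef1 to Ccn4 the columns of Grow 3, Grow 4 and Regress 4 are red, whereas Cyp2e1, Oat and Rgn are red in Grow 3 and Grow 4 and blue in Regress 4.

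The genes whose pattern was most like a member's were found by the root mean square of the difference between centred log2 CPM over the 14 libraries, in log2 units, so that 0 is an identical pattern. This is a description over libraries that share the 3 high tumours. Axin2 and Nkd1 were each other's nearest of all tested named genes, at 0.49. Among the 5 nearest to Glul were Nkd1 (0.72), Slc1a2 (0.79), a glutamate transporter, Axin2 (0.85) and Sp5 (1.00). Nearest to Lgr5 was Slc16a10 (0.60), followed by Tbx3, Axin2, Notum and Rasgrf2. Sp5 lay nearest to Axin2 (0.71), then Tbx3, Nkd1, Lgr5 and Chrna2.

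For Rhbg the nearest were Nkd1 (0.79), Pcp4l1 (0.84), Sp5 (0.86), Cpe (0.90) and Slc22a3 (0.98), and Cpe, carboxypeptidase E, was at 36.7, 38.3 and 15.7 CPM in Grow 3, Grow 4 and Regress 4, with at most 2.32 elsewhere. For Tbx3 they were Lgr5 (0.63), Gstm2, Avpr1a, Nxpe2 and Acot1, and for Notum Tnfrsf19 (0.50), Klhl23, Gulo, Slc16a10 and Lgr5. The pattern of Rnf43 was nearest to Ccdc157 (0.50) and Znrf3 (0.53), then Pdxk, Fam102a and Vopp1. Znrf3 lay nearest to Mertk (0.40), Pdxk, Lmo7, Aars and Fam107b, none of them a member. Axin2, Lgr5, Nkd1 and Sp5 were each among the 5 nearest of 4 other members. With a prior count of 0.5 the lists of 5 kept 3 genes for Axin2, 3 for Nkd1 and 2 for Rhbg.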

How the data were processed

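Libraries were prepared from snap-frozen tissue with Illumina's TruSeq v2 kit for RNA, per the labels. That kit does not mark strand, so overlapping antisense transcripts are counted with the gene. Salmon 0.3.1, edgeR 3.14.0 and the mouse build mm9 appear in the submitters' processing notes, without a stated role. The authors deposited estimated counts, which need not be whole, for 35230 RefSeq rows and 14 samples, per the file headers, and 1 empty column was not used. Rows were matched to symbols through a RefSeq table of GRCm38.p6 (26077 rows) or GENCODE (148 rows). The 9005 unmatched rows were kept as features and held 3.52% to 12.05% of a library. For each gene the rows were added up and the sum rounded.

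Tests used edgeR 4.0.16 in R 4.3.3 (robust quasi-likelihood, TMM, filterByExpr, Benjamini-Hochberg over 12300 features, called at an adjusted p under 0.05), with a biological coefficient of variation of 0.484. Alternatives were DESeq2 1.42.0 and limma-voom (limma 3.58.1), other normalization, filter, length and design choices, and leaving out samples. For all tumours the Grow and Regress effects were averaged. An SE was obtained from the F statistic, as the size of the log2 fold change over the root of F. Log2 CPM used a prior count of 2, and floors are 3 counts per library and cover counting error only. The code was tested on simulated counts. The 10 genes and all lists were chosen with earlier results of these data known, so they are no independent support. Named genes are the members, 13 further pathway and zonation genes, up to 4 called genes of each list (where none was called, the 2 with the highest mean CPM) and the 5 genes nearest to each member, 1 of which is not reported here. Others are said to have been chosen after their values were seen. Promoter windows were used for sequence only, since the counts were made with another build.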

Additional observations from a re-analysis of the deposited data

Results flagged for a closer look

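Values were looked at again where the highest or lowest library of a group of 4 or 6 stood apart from the rest by Dixon's test, over 69 groups of values of the members and the fixed pathway genes. In all, 13 values were picked out. Chance would flag about 1 in 20 groups if values were independent and normally distributed. Untransformed CPM of genes that vary together need not be, so the 13 cannot be set against that rate. Regress 4 stood apart among the Regress tumours, on the high side, for 7 of the 10 members: Glul (1519 CPM), Axin2 (26.1), Lgr5 (11.3), Nkd1 (28.8), Notum (36.7), Rnf43 (33.7) and Rhbg (43.6). It also stood apart there for Ctnnb1 (378 CPM), Tcf7l2 (11.7) and Lef1 (1.13). These 10 values come from 1 library and are not independent of each other. Its summed stellate cell and matrix markers, 987 CPM, were also the highest of the 14 libraries, and their part in these values was not tested.

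Among the normal livers, Normal 2 was low for Axin2 (1.40 CPM, against 4.66 to 5.27 in the others) and Normal 4 was high for Rhbg (10.5 CPM, against 3.15 to 4.18). Among the Grow tumours, Grow 2 was high for Myc (16.9 CPM, against 3.31 to 6.82). Grow 3 and Grow 4 did not stand apart singly by this test, since each has the other beside it.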

How the results depend on the processing

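No library or design choice made edgeR call any of the 10 genes in any of the 6 comparisons. DESeq2 called 1 in Grow against Normal, 1 for TMZ and 6 for SAHA. Features called in all tumours against Normal, 285 in the main test, numbered 1055 with DESeq2, 127 with limma-voom, 0 with the replicate block, 659 with the length trend removed, 1092 with TMZ as a covariate, 0 with Normal 4 and Regress 2 left out and 570 with Grow 3 and Grow 4 left out, and between 0 and 991 with 1 library left out. Features called in Grow against Normal, 217 in the main test, numbered 1014 with DESeq2, 90 with limma-voom, 0 with the replicate block, 550 with the length trend removed, 877 with only the groups compared in the fit, 1135 with TMZ as a covariate, 113 with Grow 3 and Grow 4 summed, 18 with Normal 4 and Regress 2 left out and 474 with Grow 3 and Grow 4 left out, and between 4 and 651 with 1 library left out. Features called in Regress against Normal, 3 in the main test, numbered 712 with DESeq2, 0 with limma-voom, 35 with RLE size factors, 0 with the replicate block, 155 with the length trend removed, 0 with only the groups compared in the fit, 693 with TMZ as a covariate, 0 with Grow 3 and Grow 4 summed, 0 with Normal 4 and Regress 2 left out and 126 with Grow 3 and Grow 4 left out, and between 0 and 667 with 1 library left out. Features called in Regress against Grow, 0 in the main test, numbered 31 with DESeq2, and between 0 and 1249 with 1 library left out. Features called in TMZ, 0 in the main test, numbered 464 with DESeq2, 2 with limma-voom, 1 with no low-count filter and 80 with the length trend removed, and between 0 and 737 with 1 library left out. Features called in SAHA, 0 in the main test, numbered 52 with DESeq2.

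The signs of the members' log2 fold changes, none of them called by edgeR, depended on a few libraries and on the design; the cause was not tested beyond the libraries left out. With limma-voom the sign turned for Glul -0.56, Axin2 -0.03, Lgr5 -0.21, Notum -0.42, Rnf43 -0.19 and Tbx3 -0.47 in all tumours against Normal, for Glul -0.16, Notum -0.48 and Tbx3 -0.30 in Grow against Normal, for Glul -0.95, Axin2 -0.13, Lgr5 -0.44, Notum -0.37 and Tbx3 -0.64 in Regress against Normal, for Sp5 0.31 and Notum 0.11 in Regress against Grow. With no low-count filter the sign turned for Notum -0.01 in Regress against Normal. With the replicate block the sign turned for Notum -0.06 and Znrf3 0.16 in all tumours against Normal, for Glul -0.94, Axin2 -0.17, Lgr5 -0.43, Notum -0.49 and Tbx3 -0.28 in Regress against Normal, for Rnf43 -0.36 in TMZ. With the length trend removed the sign turned for Znrf3 0.12 in all tumours against Normal. With TMZ as a covariate the sign turned for Glul -0.82, Notum -0.52, Rnf43 -0.13 and Tbx3 -0.79 in all tumours against Normal, for Glul -1.71, Axin2 -0.39, Lgr5 -0.18, Nkd1 -0.08, Notum -0.74, Znrf3 -0.11 and Tbx3 -0.97 in Grow against Normal, for Notum -0.29 and Tbx3 -0.60 in Regress against Normal, for Glul 1.78, Axin2 1.08, Lgr5 0.46, Nkd1 0.96, Sp5 0.37, Notum 0.45, Tbx3 0.37 and Rhbg 0.57 in Regress against Grow. With Normal 4 and Regress 2 left out the sign turned for Znrf3 0.09 in all tumours against Normal. With Grow 3 and Grow 4 left out the sign turned for Glul -1.0, Axin2 -0.41, Lgr5 -0.32, Nkd1 -0.28, Notum -0.90, Rnf43 -0.38 and Tbx3 -0.79 in all tumours against Normal, for Glul -2.41, Axin2 -1.77, Lgr5 -1.21, Nkd1 -1.74, Notum -1.85, Rnf43 -0.43, Znrf3 -0.35, Tbx3 -1.64 and Rhbg -0.85 in Grow against Normal, for Glul 2.82, Axin2 2.72, Lgr5 1.76, Nkd1 2.93, Notum 1.90, Rnf43 0.11, Tbx3 1.71 and Rhbg 2.31 in Regress against Grow, for Axin2 -0.63, Lgr5 -0.52, Nkd1 -0.91, Notum -0.68, Rnf43 -0.67 and Rhbg -0.73 in TMZ, for Rnf43 -0.08 in SAHA. With 1 library left out, values that changed sign ranged as follows: in all tumours against Normal Lgr5 -0.24 to 1.29, Notum -0.15 to 0.58, Rnf43 -0.40 to 0.50 and Znrf3 -0.35 to 0.41, and in Regress against Normal Glul -1.44 to 0.78, Axin2 -1.46 to 1.31, Lgr5 -1.85 to 0.90, Nkd1 -0.99 to 1.55, Sp5 -0.12 to 2.16, Notum -1.09 to 0.28, Tbx3 -0.82 to 0.41 and Rhbg -0.24 to 1.97. Those of Regress against Normal turned without Regress 4.

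Group and replicate numbers of the titles did not pair samples. Over 12 pairs with the same number the correlation of deviations from the group means ran from -0.52 to 0.20, with 2 over 0.1. Samples were also set against all samples of each other group that held their number. In 2 of 24 such comparisons the sample of the same number correlated best. With that number as a replicate block, edgeR called 0 of the 10 genes and 0 features in each comparison, and the calls of Ccnd1 (adjusted p = 0.197), Jun (0.243) and Asl (0.253) in Grow and of Ccnd1 in Regress (0.333) were lost. Lists of nearest genes kept 3 of 5 for Axin2, 3 for Nkd1 and 2 for Rhbg with a prior count of 0.5. Leaving out Grow 3 and Grow 4 together was chosen after seeing the data. At 4707063 to 13394301 counts per library, levels under about 1 CPM rest on a few counts, which limits Sp5 and Lgr5 in most libraries.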
